A study of Homo sapiens with 6 samples.

Results

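The 10 genes described here are the core of the transforming growth factor β (TGF-β) pathway: the ligands *TGFB1* and *TGFB2*, the receptors *TGFBR1* and *TGFBR2*, the signal-carrying SMADs *SMAD2*, *SMAD3* and *SMAD4*, and the inhibitors *SMAD6*, *SMAD7* and *SKIL*. They were found by gene symbol among the 12499 genes with deposited counts, and all 10 had counts high enough to be tested. The RNA came from HaCaT cells, an immortalized line of human keratinocytes. They received either a lentivirus carrying human *ATF7* (LV-*ATF7*) or the control virus LV-NC for 48 hours, and all of them were then cultured under high glucose (HG) for 24 hours. The coding sequence of *ATF7* was carried by the pLVX-IRES-Puro vector, per the methods of the study. *ATF7* encodes a basic leucine zipper transcription factor of the ATF/CREB family. Each group had 3 libraries of poly(A)-selected mRNA, and no group without infection or without HG was analyzed here. It is not stated whether the 3 replicates of a group were separate cultures, so the p-values measure the spread between these libraries, which may be technical.

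TGF-β ligands are secreted in a latent form and bind, once released, a pair of type II and type I receptors that act as serine/threonine kinases. The activated type I receptor phosphorylates SMAD2 and SMAD3, which join SMAD4 and enter the nucleus to raise or lower transcription. SMAD6, SMAD7 and SKIL restrain the signal, and *SMAD7* and *SKIL* are themselves classic target genes of it. In skin, the pathway is known for arresting keratinocyte growth and for its part in migration, matrix deposition and scarring during wound repair.

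Total counts ranged from 16686472 to 20562768 per library. Expression is given below as CPM, the normalized read count per library after TMM scaling, which adjusts for depth and for differences in library composition. *ATF7* itself, the gene carried by the virus, read 50.6, 46.4 and 52.2 CPM in the LV-NC-labeled libraries and 21.9, 25.7 and 28.0 CPM in those labeled LV-*ATF7*. Its level was thus lower in every library labeled for its overexpression (log2 fold change −0.98, SE 0.12, adjusted p = 0.000189 in the quasi-likelihood test of edgeR after Benjamini-Hochberg adjustment), which goes against the labels. Of the annotated exon bases of *ATF7*, 43.8% are shared with other genes, so its count is uncertain. Every direction below therefore rests on labels that the *ATF7* counts contradict. The library labeled LV-NC 1 stood apart from the other libraries of its group: between it and LV-NC 2 or 3 the mean chi-square per gene was 77.2 or 69.2, against 2.86 to 10.6 for the other pairs of replicates. Of 18 keratinocyte markers, 17 could be tested, and 11 were higher and 3 lower in the libraries labeled LV-*ATF7*. The summed level of these markers was 3026 to 4053 CPM in the LV-NC-labeled libraries against 10092 to 10930 CPM in those labeled LV-*ATF7*. The largest rise in CPM was that of *KRT5* (mean 266.4 to 3354 CPM), and the largest on the log2 scale that of *TP63* (15.5 to 231.5 CPM, log2 fold change 3.90). The 3 lower were *KRT14* (8.06 to 1.55 CPM), *EPCAM* (297.6 to 181.1 CPM) and *KRT10* (109.9 to 75.3 CPM). *KRT14* was low in every library and its groups overlapped, at 0.375, 12.5 and 11.3 CPM against 1.45, 1.38 and 1.82 CPM. In LV-NC 1, *KRT14* had 7 counts and *KRT6A* 24, against 239 and 1815 in LV-NC 2. Of the markers of other cell types, 2 of 12 for fibroblasts (summed level 33.1 to 42.7 against 17.3 to 21.7 CPM), 2 of 7 for endothelium (1.12 to 5.50 against 84.6 to 89.9 CPM, mostly *CDH5*) and 3 of 8 for leukocytes (5.57 to 8.13 against 9.38 to 12.7 CPM) could be tested. *COL1A2*, *PECAM1* and *PTPRC*, which define those cell types, were not analyzed here. The part of these differences in the results below was not tested, and in bulk RNA fewer cells of a type and less RNA per cell cannot be told apart.

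Across all genes tested, 67.6% differed between the groups at an adjusted p under 0.05, 34.7% being higher and 32.9% lower in the libraries labeled LV-*ATF7*. Of the 10 pathway genes, 9 passed this threshold, 4 of them higher and 5 lower, and this count is not read as a result about the pathway. The median log2 fold change was −0.26 over the 10 genes and 0.00016 over all genes tested. The TMM scaling itself places the latter near 0, so it is not a separate observation. In 7 of the 10 genes the groups also differed by 1.5-fold or more, as did 52.9% of all genes tested. In 8 genes the highest library of one group lay below the lowest of the other, which held for 72.7% of all genes. What set the 10 genes apart from each other was their direction. Both ligands, *SMAD2* and *SMAD3* were higher, both receptors and all 3 inhibitors were lower, and *SMAD4* did not pass the test.

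**Figure D1:**
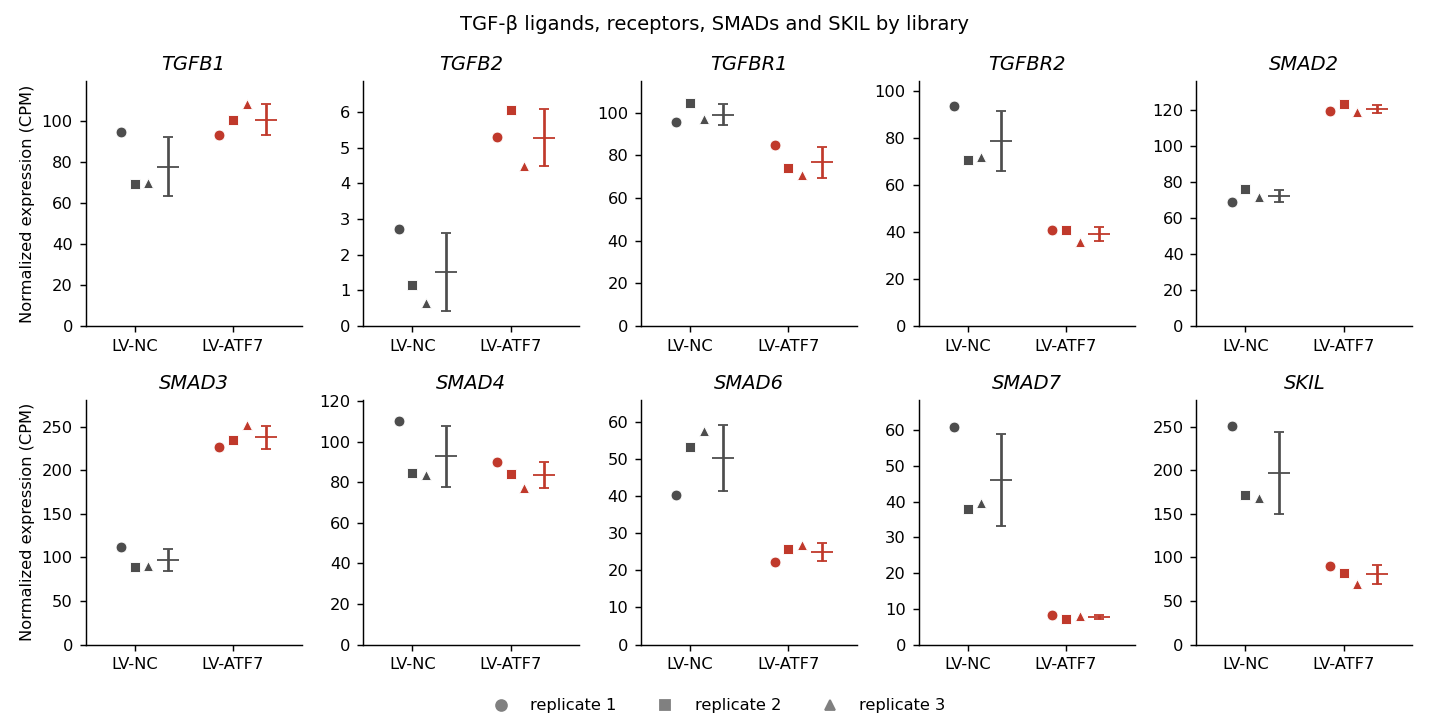
Normalized expression in CPM (y axis, linear and starting at 0) of the 10 genes by library, with the LV-NC label in gray and the LV-*ATF7* label in red. Circles, squares and triangles are replicates 1, 2 and 3, and the bar beside each group is its mean ± SD. The groups overlap for *TGFB1* and *SMAD4* only, and the LV-NC replicate 1 library lies above the other LV-NC libraries in 7 of the 10 panels.

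The 3 inhibitors fell, each by 2.01-fold or more, and their promoters are shown first to give the sequence context of these feedback genes. *SMAD7* (ENSG00000101665, chr18:48919853-48952052, minus strand, GRCh38) encodes the inhibitory SMAD that blocks the type I receptor and recruits ubiquitin ligases to it. *SMAD6* (ENSG00000137834, chr15:66702228-66782848, plus strand) encodes the related inhibitor that acts mainly on signaling by bone morphogenetic proteins (BMPs), the other large branch of the ligand family. *SKIL* (ENSG00000136603, chr3:170357678-170396835, plus strand) encodes SnoN, a nuclear repressor that binds SMAD complexes on DNA. The 250 bases before the RefSeq transcription start (GRCh38.p14) lie at chr15:66701986-66702235 for *SMAD6*, chr18:48950966-48951215 for *SMAD7* and chr3:170357465-170357714 for *SKIL*, each printed 5′ to 3′ on the strand of its gene. Capitals mark matches to the motifs searched, which are named after the sequences.
SMAD6: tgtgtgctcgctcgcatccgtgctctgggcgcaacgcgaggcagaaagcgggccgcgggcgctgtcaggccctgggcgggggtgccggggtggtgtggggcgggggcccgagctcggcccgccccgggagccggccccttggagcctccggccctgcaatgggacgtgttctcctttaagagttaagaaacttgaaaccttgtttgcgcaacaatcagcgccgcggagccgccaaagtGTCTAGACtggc
SMAD7: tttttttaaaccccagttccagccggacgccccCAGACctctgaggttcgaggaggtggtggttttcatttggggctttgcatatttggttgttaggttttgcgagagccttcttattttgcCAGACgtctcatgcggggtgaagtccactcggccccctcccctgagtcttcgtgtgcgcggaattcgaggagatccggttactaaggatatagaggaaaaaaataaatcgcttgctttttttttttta
SKIL: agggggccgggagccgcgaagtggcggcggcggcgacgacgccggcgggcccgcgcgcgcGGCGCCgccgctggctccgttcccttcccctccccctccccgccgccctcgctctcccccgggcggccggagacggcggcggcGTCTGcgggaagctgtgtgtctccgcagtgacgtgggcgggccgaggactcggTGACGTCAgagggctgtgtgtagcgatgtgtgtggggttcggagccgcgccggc

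The motifs were searched on both strands of these windows, with 1 window for each of the 10 genes and 35116 RefSeq windows of the same length as background. Some genes have more RefSeq windows (8 for *TGFBR1*, 5 for *SMAD3*, 3 for *SMAD7*, 2 each for *TGFBR2* and *SMAD2*). Their other windows were not counted for the 10 genes, so a motif absent below may lie there. The windows of *SMAD3*, *SMAD4* and *SMAD7* also lie inside the annotated span of the gene. That of *TGFB2* ends well before its gene begins. For these genes the bases next to the annotated gene start were not searched, so no absence of a motif there can be read. The cAMP response element TGACGTCA, the palindrome that ATF/CREB factors recognize, was found in the *SKIL* window alone among the 10, at bases 54 to 47 before the start, and in 1.65% of all windows. The palindrome GTCTAGAC, which SMAD3 and SMAD4 bind, was found in the *SMAD6* window alone, at bases 12 to 5 before the start, and in 0.182% of all windows (64 windows). The short SMAD box CAGAC was present in 4 of the 10 windows and in 38% of all windows. It lay in the *SMAD7* window at bases 217 to 213 and 128 to 124 before the start, in the *SKIL* window at bases 107 to 103 on the opposite strand (printed as GTCTG), and in the windows of *TGFB2* and *TGFBR1*. The GC-rich SMAD motif GGCGCC was present in 4 of the 10 windows, those of *SMAD2*, *SMAD3*, *SMAD4* and *SKIL* (bases 190 to 185 before the start), and in 16.4% of all windows. No window of the 10 held the AP-1 motif TGANTCA, which 6.57% of all windows held. The GC content was 68% in the *SMAD6* window, 48% in that of *SMAD7* and 78.4% in that of *SKIL*, beside a median of 58% over all windows. A match is a description of the letters, not evidence of a site in use.

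*SMAD7* read 60.9, 37.8 and 39.6 CPM in the LV-NC-labeled libraries and 8.21, 7.19 and 7.85 CPM in those labeled LV-*ATF7*. The libraries labeled LV-*ATF7* were close to each other and far below every LV-NC library. The mean fell from 46.1 ± 12.8 to 7.75 ± 0.517 CPM (SD, n = 3 each), 5.95-fold lower (log2 fold change −2.57, SE 0.21, adjusted p = 2.15e-05, edgeR). This was the largest change of the 10 in either direction.

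*SKIL* read 251.3, 171.2 and 168.0 CPM in the LV-NC-labeled libraries and 89.9, 82.3 and 69.0 CPM in those labeled LV-*ATF7*. The groups did not overlap, and LV-NC 1 was the highest library. Its mean fell from 196.8 ± 47.2 to 80.4 ± 10.6 CPM, 2.45-fold lower (log2 fold change −1.29, SE 0.18, adjusted p = 0.000362, edgeR).

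*SMAD6* read 40.1, 53.1 and 57.4 CPM in the LV-NC-labeled libraries and 22.3, 25.7 and 26.7 CPM in those labeled LV-*ATF7*. Here LV-NC 1 was the lowest library of its group, the opposite of *SMAD7* and *SKIL*, and still lay above all libraries labeled LV-*ATF7*. The mean fell from 50.2 ± 8.99 to 24.9 ± 2.33 CPM, 2.01-fold lower (log2 fold change −1.01, SE 0.15, adjusted p = 0.000587, edgeR).

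The ligands were higher, by very different amounts and with unequal certainty. *TGFB2* (ENSG00000092969, chr1:218346235-218444619, plus strand), whose product depends on the coreceptor betaglycan for high-affinity binding, was counted 51, 22 and 11 times in the LV-NC-labeled libraries and 95, 119 and 81 times in those labeled LV-*ATF7*. These counts correspond to 2.73, 1.15 and 0.637 CPM against 5.30, 6.07 and 4.48 CPM, so the groups did not overlap but the LV-NC libraries differed widely among themselves. Its mean rose from 1.51 ± 1.09 to 5.28 ± 0.793 CPM, 3.48-fold (log2 fold change 1.80, SE 0.44, adjusted p = 0.0067, edgeR). Without the LV-NC replicate 1 library the log2 fold change was 2.52. Of the annotated *TGFB2* exon bases, 26.6% are shared with *TGFB2-OT1* on the same strand, and reads there cannot be assigned to either gene.

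*TGFB1* (ENSG00000105329, chr19:41301587-41353911, minus strand), the ligand best known from wound tissue, read 94.5, 69.1 and 69.6 CPM in the LV-NC-labeled libraries and 93.2, 100.3 and 108.3 CPM in those labeled LV-*ATF7*. The LV-NC 1 library exceeded the LV-*ATF7* 1 library, so the groups overlapped. The mean was 77.7 ± 14.5 against 100.6 ± 7.59 CPM, a 1.29-fold difference that narrowly passed the threshold (log2 fold change 0.37, SE 0.14, adjusted p = 0.0449, edgeR). It did not pass in 9 of 13 alternative fits, where the log2 fold change ranged from 0.20 to 0.52 over all 13, and the adjusted p from 4.4e-07 to 0.273. In particular, it was lost when any 1 library other than LV-NC 1 was left out. Its exons share 6.64% of their bases with *HNRNPUL1* on the opposite strand.

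Both receptors were lower, the type II receptor by more. *TGFBR2* (ENSG00000163513, chr3:30606502-30694142, plus strand), the type II receptor that binds the ligand first, read 93.5, 70.8 and 71.7 CPM in the LV-NC-labeled libraries and 40.6, 40.9 and 35.6 CPM in those labeled LV-*ATF7*. All 3 libraries labeled LV-*ATF7* lay below the lowest LV-NC library. The mean fell from 78.7 ± 12.9 to 39.0 ± 2.97 CPM, 2.01-fold lower (log2 fold change −1.01, SE 0.13, adjusted p = 0.000298, edgeR).

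*TGFBR1* (ENSG00000106799, chr9:99104038-99154192, plus strand), the type I receptor that passes the signal to SMADs, read 95.7, 104.6 and 96.9 CPM in the LV-NC-labeled libraries and 85.1, 74.1 and 71.0 CPM in those labeled LV-*ATF7*. The groups did not overlap, and LV-NC 1 lay with the rest of its group. Its mean fell from 99.1 ± 4.84 to 76.7 ± 7.39 CPM, 1.29-fold lower (log2 fold change −0.37, SE 0.10, adjusted p = 0.0121, edgeR). The call was lost without the LV-*ATF7* replicate 2 library (log2 fold change −0.34, adjusted p = 0.0611, edgeR).

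Of the signal-carrying SMADs, both receptor-activated members were higher and the common partner was not called. *SMAD3* (ENSG00000166949, chr15:67063763-67195195, plus strand), which binds DNA directly at SMAD elements, read 111.7, 89.1 and 90.2 CPM in the LV-NC-labeled libraries and 226.7, 234.7 and 252.2 CPM in those labeled LV-*ATF7*. Every library labeled LV-*ATF7* was above every LV-NC library. The mean rose from 97.0 ± 12.7 to 237.8 ± 13.03 CPM, 2.45-fold (log2 fold change 1.29, SE 0.11, adjusted p = 3.44e-05, edgeR).

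*SMAD2* (ENSG00000175387, chr18:47808957-47931146, minus strand), whose main protein form lacks direct DNA binding, read 69.1, 75.8 and 71.8 CPM in the LV-NC-labeled libraries and 119.4, 123.2 and 118.8 CPM in those labeled LV-*ATF7*. Relative to its mean it varied least of the 10 genes in the LV-NC group, with an SD of 3.39 CPM on a mean of 72.2 CPM, and the groups did not overlap. Its mean rose to 120.5 ± 2.35 CPM, 1.67-fold (log2 fold change 0.74, SE 0.085, adjusted p = 0.000134, edgeR).

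*SMAD4* (ENSG00000141646, chr18:51028394-51085045, plus strand), the partner shared by the TGF-β and BMP branches, read 110.3, 84.7 and 83.5 CPM in the LV-NC-labeled libraries and 90.2, 84.1 and 77.4 CPM in those labeled LV-*ATF7*. The libraries of both groups were interleaved. The mean was 92.8 ± 15.2 against 83.9 ± 6.42 CPM (log2 fold change −0.15, SE 0.13, adjusted p = 0.347, edgeR), and the gene was called in none of the 13 alternative fits, whose log2 fold changes ran from −0.31 to 0.0037.

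**Figure D2:**
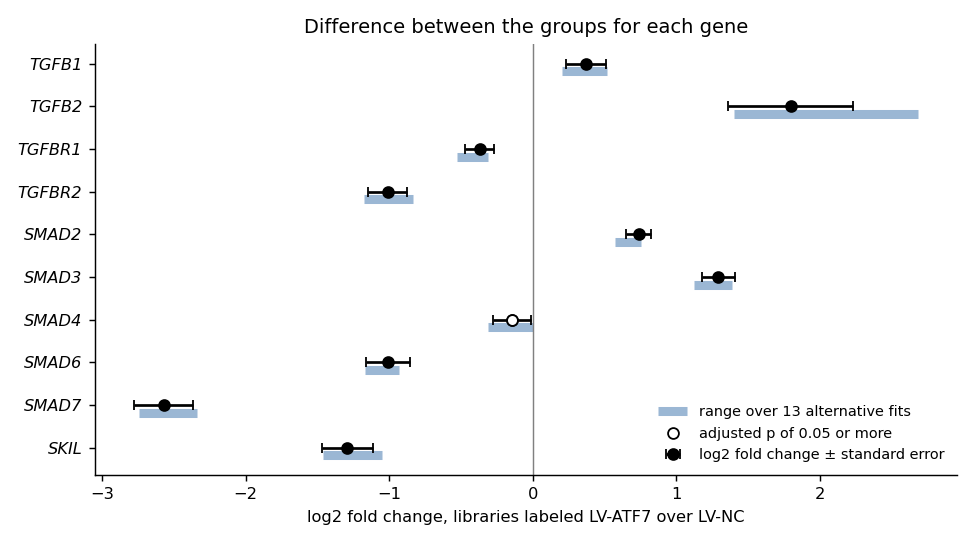
Log2 fold change (x axis, libraries labeled LV-*ATF7* over LV-NC) of the 10 genes, as points with their standard error. The blue bars give the range over 13 alternative fits, and the open point is *SMAD4*, with an adjusted p of 0.347. The ranges lie to one side of 0 for all genes except *SMAD4*, and *SMAD7* has the most negative value (−2.57).

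Within the LV-NC group, replicate 1 departed from the other libraries for most of the 10 genes. That library differed from the mean of the other LV-NC libraries by 1.24 on the log2 scale for *TGFB2*, 0.65 for *SMAD7*, 0.57 for *SKIL*, 0.44 for *TGFB1*, 0.39 for *TGFBR2* and for *SMAD4*, and 0.32 for *SMAD3*. It was lower for *SMAD6* (−0.46), *SMAD2* (−0.09) and *TGFBR1* (−0.07). The size of this difference exceeded the median over all genes tested, 0.30, in 8 of the 10 genes. Without that library, 9 of the 10 genes were called, beside 10011 of all 12495 genes tested in that fit, and none of the 9 changed direction.

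Ratios of functionally paired genes were taken within each library, where sequencing depth and scaling cancel. A ratio of counts also depends on transcript lengths, so only its difference between groups is of use. The log2 ratio of *TGFB2* to *TGFB1* was −5.10, −5.87 and −6.71 in the LV-NC-labeled libraries and −4.13, −4.04 and −4.59 in those labeled LV-*ATF7*. It was higher in every library labeled LV-*ATF7*, by 1.64 on the log2 scale or 3.12-fold. The log2 ratio of *TGFBR2* to *TGFBR1* was −0.03, −0.56 and −0.44 against −1.07, −0.86 and −0.99, a difference of −0.63 or 1.55-fold lower. The type II receptor was thus lower relative to the type I receptor in all 3 libraries labeled LV-*ATF7*.

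The log2 ratio of *SMAD3* to *SMAD2* was 0.69, 0.23 and 0.33 in the LV-NC-labeled libraries and 0.92, 0.93 and 1.09 in those labeled LV-*ATF7*, a difference of 0.56 or 1.48-fold. The log2 ratio of *SMAD7* to *SMAD6* was 0.60, −0.49 and −0.53 against −1.44, −1.84 and −1.76, a difference of −1.54 or 2.91-fold lower. In this last pair LV-NC 1 lay far above the other libraries, and without it the difference was −1.17. For all 4 ratios the groups did not overlap, and the two-sided exact permutation test gave p = 0.10, also after adjustment over the 4 pairs, which is the smallest value that 3 libraries against 3 allow.

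**Figure D3:**
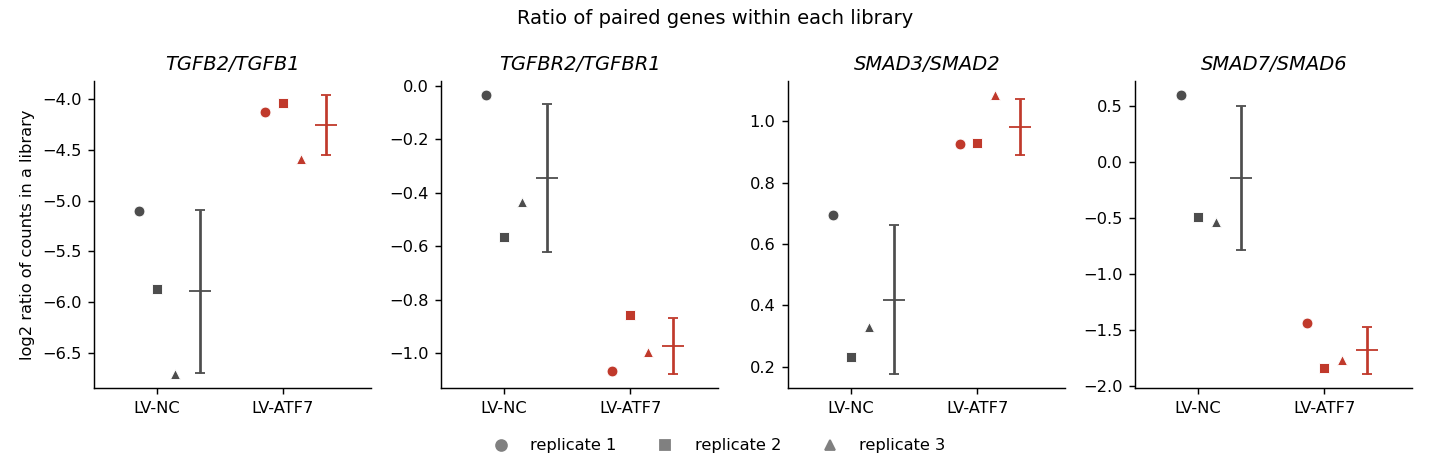
Log2 ratio of counts within each library (y axis, its range set for each panel) for 4 pairs of genes, in libraries labeled LV-NC (gray) and LV-*ATF7* (red), with the mean ± SD beside each group. The groups separate in all 4 panels, upward for *TGFB2/TGFB1* and *SMAD3/SMAD2* and downward for *TGFBR2/TGFBR1* and *SMAD7/SMAD6*.

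The other genes of the pathway were taken from 7 lists written from general knowledge, none of which holds any of the 10 genes, and some genes stand in more than 1 list. Their counts are set beside the 67.6% of all genes tested that passed (34.7% higher, 32.9% lower), and a share near it is not a result about a list. In the list for ligand latency and activation, 16 of 19 genes could be tested and all 16 passed (100%). Of these, 10 were higher and 6 lower, with a median log2 fold change of 0.60. Not every gene of the list encodes a protein with such a role, so these values describe the list and not that step alone. Leaving out 1 library at a time, 13 to 16 passed, while calls over all genes ranged from 7290 of 12497 to 10011 of 12495. *PLAU*, the urokinase that generates plasmin, rose from 62.8 to 574.3 CPM (log2 fold change 3.19), *LTBP2*, a latent TGF-β binding protein family member of the matrix, from 10.7 to 54.3 CPM (2.34), and *ITGB8*, the β8 integrin subunit that activates latent TGF-β, from 23.4 to 70.9 CPM (1.59). *THBS1*, the thrombospondin that can release active ligand, fell from 237.1 to 89.8 CPM (log2 fold change −1.40), as did the integrin subunit gene *ITGB5*, from 151.8 to 64.3 CPM (−1.24). The list also held the remaining TGF-β ligand, *TGFB3*, which fell from 4.38 ± 0.98 to 1.42 ± 0.54 CPM (log2 fold change −1.62, adjusted p = 0.00251, edgeR), opposite in direction to *TGFB1* and *TGFB2*.

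Of the other receptors and coreceptors, 13 of 20 could be tested, with 3 higher, 6 lower (69.2% called) and a median of −0.01. *BAMBI*, a decoy receptor without a kinase domain and a further inhibitor of the pathway, fell from 23.8 to 3.67 CPM (log2 fold change −2.70, adjusted p = 4.47e-06, edgeR). *TGFBR3*, which encodes betaglycan, fell from 3.99 to 2.23 CPM (−0.84, adjusted p = 0.00963, edgeR), and the activin receptor gene *ACVR2A* fell by 1.42 and the BMP coreceptor gene *RGMB* by 0.91 on the log2 scale. The genes that rose were *BMPR1B*, a type I BMP receptor (log2 fold change 1.58), *ENG*, the coreceptor endoglin (2.90 to 8.19 CPM), and *ACVR2B*, an activin type II receptor (0.82).

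Of the other SMADs, cofactors and corepressors, 22 of 26 were tested, with 8 higher, 5 lower (59.1% called) and a median of 0.03. *SKI*, the corepressor most closely related to *SKIL*, fell with it, from 344.4 to 104.1 CPM (log2 fold change −1.73, adjusted p = 8.22e-06, edgeR), and *ATF3*, a stress-induced relative of *ATF7* that partners SMAD3, from 649.0 to 156.3 CPM (−2.05). *JUN*, a subunit of AP-1, fell by 0.92 on the log2 scale, whereas its relative *JUNB* rose (0.75). *SMAD1*, which carries BMP signals, rose from 22.6 to 36.0 CPM (log2 fold change 0.67, adjusted p = 0.001, edgeR), and *SMAD5*, of the same branch, was not called (−0.04, adjusted p = 0.841, edgeR). *SMAD9* was not analyzed here. The largest rises were those of the transcription factor genes *RUNX2* (10.1 to 95.1 CPM, log2 fold change 3.24) and *MYC* (171.8 to 799.0 CPM, 2.22) and of the corepressor gene *TGIF2* (1.75).

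For genes of receptor and SMAD turnover and trafficking, 29 of 30 were tested, and 12 passed (41.4%), 3 higher and 9 lower, with a median of −0.22. *PPP1R15A*, the phosphatase subunit GADD34 that SMAD7 brings to the type I receptor, fell from 934.0 to 183.6 CPM (log2 fold change −2.35). The ubiquitin ligase genes *RNF111*, whose product marks SMAD7 and SnoN for degradation, and *NEDD4L* fell by 0.78 and 0.77 on the log2 scale. *CAV1*, the caveolin of receptor internalization, rose from 49.9 to 232.6 CPM (log2 fold change 2.22), while the deubiquitinase genes *USP9X* (0.39) and *UCHL5* (0.31) rose little and were called in 10 and 8 of the 13 alternative fits. Without the LV-NC replicate 1 library, 21 genes of this list passed. Calls over all genes tested rose as well, from 8429 of 12462 to 10011 of 12495, so the rise is not particular to this list.

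Among genes known to respond to TGF-β through SMADs, 44 of 45 were tested, with 21 higher and 15 lower (81.8% called) and a median of 0.09, so they did not move in a common direction. *CCN2*, connective tissue growth factor, fell from 21.8 to 0.717 CPM (log2 fold change −4.91, adjusted p = 1.39e-06, edgeR), *CDKN1A*, the cell cycle inhibitor p21, from 842.2 to 163.1 CPM (−2.37, adjusted p = 1.89e-06, edgeR), and *SPHK1*, a sphingosine kinase, from 104.2 to 17.8 CPM (−2.55).

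Other responsive genes rose. *MMP13*, a collagenase, rose from 6.08 to 61.9 CPM (log2 fold change 3.34), *TGM2*, a transglutaminase, from 4.79 to 37.2 CPM (2.96) and *IGFBP3*, an insulin-like growth factor binding protein, from 358.5 to 2666 CPM (2.89). *PMEPA1*, a feedback inhibitor of the pathway, read 222.5 ± 159.6 CPM in the LV-NC group and 128.6 ± 7.59 CPM in the other and was not called (log2 fold change −0.79, adjusted p = 0.125, edgeR). Its LV-NC values were 406.7, 127.2 and 133.6 CPM, and without the first of these the log2 fold change was −0.04.

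**Figure D4:**
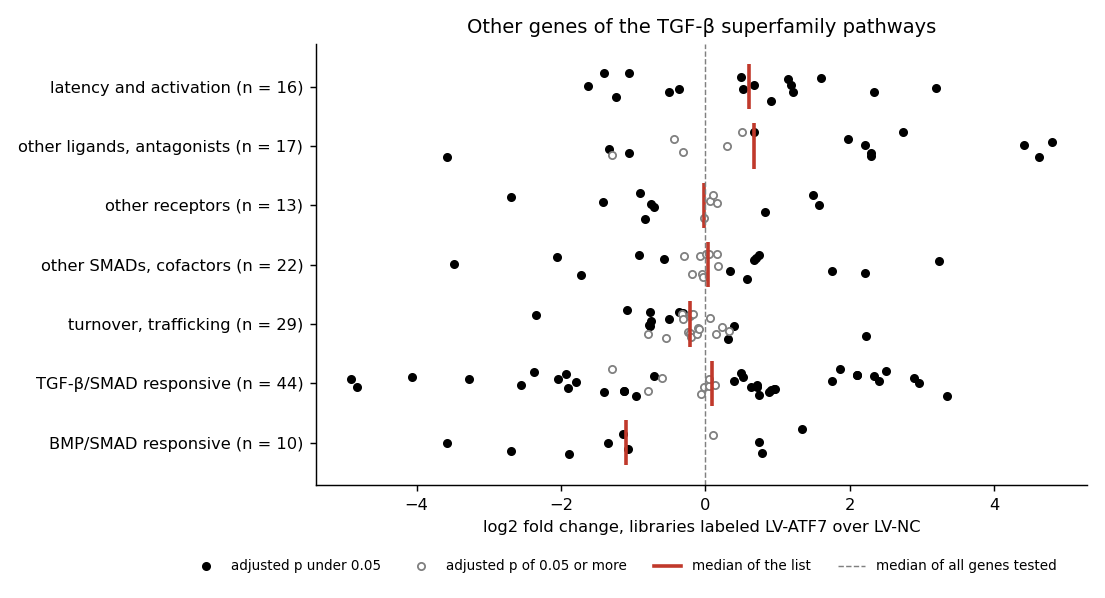
Log2 fold change (x axis, libraries labeled LV-*ATF7* over LV-NC) of each gene tested in 7 lists of other pathway genes, 1 point per gene with filled points at an adjusted p under 0.05. Red bars are list medians and the dashed line is the median of all genes tested. Every list holds points on both sides of 0, and the medians run from −1.11 (BMP/SMAD responsive) to 0.67 (other ligands, antagonists).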

How the data were processed

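RNA-seq of 6 libraries was grouped by the deposited labels. The values used for all results are raw counts of reads on each gene, deposited by the authors without normalization. They also deposited FPKM values, normalized by gene length and depth, which were not used, and p-values and fold changes from their comparison of the groups, which were left unused. The build was GRCh38 per the submitters' processing notes, and the aligner, counter, annotation and strandedness are not given in the sources used here. Reads of overlapping genes therefore cannot be separated.

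After TMM scaling, the groups were compared by the quasi-likelihood test of edgeR 4.0.16 under R 4.3.3, with no covariates. The Benjamini-Hochberg adjustment covered all 12462 genes kept by filterByExpr. The 37 genes that failed it were left out, and 33 genes without a symbol were kept under their identifiers. The threshold was an adjusted p of 0.05. The SE is the log2 fold change over the root of the F statistic. Values are mean ± SD over 3 libraries. Ratios had 0.5 added to each count. Replicates differed by more than sampling noise (mean chi-square per gene 2.86 to 77.2), and each counted as 1 library. Total counts of 16686472 to 20562768 leave counting error small for all of the 10 genes except *TGFB2*.

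Gene positions and shared exon bases are from GENCODE release 29, which holds 12485 of the 12499 identifiers. Promoter windows are from RefSeq, GRCh38.p14; a gene with several windows got the one nearest its GENCODE start, and all 10 genes matched.

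The members and lists were chosen with earlier results of these data known. Besides the 10 genes and *ATF7*, the genes named are, from each list, the 3 largest rises and 3 largest falls among called genes averaging 50 counts or more whose groups did not overlap, and a set of close relatives and responsive genes named whatever their values. An item that this rule names is not reported here. Alternatives were DESeq2 1.42.0, scaling by library size or upper quartile, leaving out the filter, a minimum of 10 counts in each library, limma 3.58.1 voom with sample quality weights, a block for the replicate number, omission of each library in turn, and, for ratios, 0 or 2 added counts. Only the edgeR fit was tested on simulated counts, with few changed genes and no outlying library. That setting differs from these data, so the test cannot show how the fit behaves here. Python 3.11.15 was used for tables and figures.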

Additional observations from a re-analysis of the deposited data

How the results depend on the processing

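Over 13 alternative fits, 7 of the 10 genes (*TGFB2*, *TGFBR2*, *SMAD2*, *SMAD3*, *SMAD6*, *SMAD7* and *SKIL*) passed the threshold each time in the same direction. *TGFB1* did not pass with DESeq2 (0.35, adjusted p = 0.0549), scaling by library size only (0.20, 0.273), at least 10 counts in every library (0.35, 0.0648), the replicate block (0.39, 0.057), or without LV-NC replicate 2 or 3 or any 1 LV-*ATF7* library. *SMAD4* changed sign with limma voom and sample quality weights (0.0037, adjusted p = 0.961). The log2 fold change of *TGFB2* was 2.69 with these weights and 2.52 without LV-NC replicate 1, both above 1.5 times its reported fold. Members called ranged from 7 to 9 when each library was left out, while calls over all genes ranged from 7290 of 12497 to 10011 of 12495. Scaling by library size moved log2 fold changes by a median of −0.164.

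The counts of called list genes that moved by over 1.5 times were those of other ligands and antagonists (6 with at least 10 counts in every library, against 12), other SMADs and cofactors (20 with voom weights, against 13) and turnover and trafficking (23 with voom weights, and 8 to 21 when each library was left out, 21 being without LV-NC replicate 1, against 12). The first follows from fewer genes tested. Over all genes tested, calls also rose, from 8429 to 10391 with voom weights and to 10011 without LV-NC replicate 1. The cause of the other moves was not tested. No ratio changed direction; leaving out each library gave log2 differences of 1.23 to 2.04 for *TGFB2/TGFB1*, −0.74 to −0.47 for *TGFBR2/TGFBR1*, 0.47 to 0.70 for *SMAD3/SMAD2* and −1.74 to −1.17 for *SMAD7/SMAD6*. The labels give both groups replicates 1 to 3, but same-numbered libraries did not deviate together (correlations 0.058, −0.021 and 0.065). The library name of LV-NC replicate 3 carries a different number from its label, so the pairing by number is uncertain for that library. With 3 libraries in a group and LV-NC 1 apart from its group, these correlations cannot settle whether same-numbered libraries were paired. With the replicate block, 8 of the 10 genes were called, and 8210 genes in all against 8429. At this depth, counting error limits *TGFB2* most among the 10 genes.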

Other observations

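Genes of the BMP and activin side of the ligand family passed the threshold about as often as all genes. Of the other superfamily ligands and their antagonists, 17 of 30 genes could be tested, with 9 higher, 3 lower (70.6% called, beside 67.6% of all genes tested) and a median log2 fold change of 0.67. Only 6 were called when at least 10 counts in every library were required. The ligand genes *INHBE* (1.44 to 40.4 CPM, log2 fold change 4.81), *BMP3* (0.33 to 8.25 CPM, 4.63) and *INHBB* (0.83 to 17.6 CPM, 4.41) had low levels in the LV-NC-labeled libraries and rose in those labeled LV-*ATF7*. *FSTL3*, a secreted antagonist of activins, and *TWSG1*, a BMP-binding protein, fell by 1.34 and 1.06 on the log2 scale.

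Of the genes known to respond to BMPs through SMADs, 10 of 15 could be tested, with 3 higher, 6 lower (90% called) and a median of −1.11. The inhibitors of differentiation, helix-loop-helix proteins and standard readouts of this branch, moved in different directions. *ID1* rose from 336.8 to 848.7 CPM (log2 fold change 1.33), *ID2* fell from 18.2 to 4.89 CPM (−1.89), and *ID3* was not called (0.10, adjusted p = 0.618 by edgeR's quasi-likelihood test), its sign being opposite in 3 of 13 alternative fits. *MSX2*, a homeobox gene, fell by 1.14 on the log2 scale, and *GATA2* and *GATA3* rose (0.74 and 0.79). *BAMBI* stands in this list too.

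A few genes of the lists fell to counts near 0 and were outside the naming rule, which required a mean of at least 50 counts. They were chosen here after their values were seen. Other called genes below that mean rose, among them *CHRD*, *INHA*, *BMP8B* and *ACTA2*. *ACTA2* had 7, 6 and 13 counts in the LV-NC-labeled libraries and 38, 51 and 52 in those labeled LV-*ATF7*. *SNAI2*, in the TGF-β-responsive list, was not called (log2 fold change 0.13, adjusted p = 0.581, edgeR). *SNAI1*, which encodes an inducer of epithelial-mesenchymal transition, was counted 23, 76 and 56 times in the LV-NC-labeled libraries and 4, 2 and 3 times in those labeled LV-*ATF7*. *ZEB1*, another such factor, had 29, 28 and 35 counts against 2, 3 and 3. *CNN1*, a calponin of contractile cells, had 16, 26 and 24 counts against 1, 1 and 0. *NOG*, the BMP antagonist noggin, had 90, 33 and 36 counts against 5, 0 and 8. All 4 passed the threshold (adjusted p = 0.000476, 9.63e-05, 0.000236 and 0.00281, edgeR), also in the 12 alternative fits that kept them. In those fits the log2 fold change of *NOG* ranged from −4.96 to −2.97. Because the 4 genes were picked for this difference, the p-values and fits add no separate evidence for it. The fit that required a minimum count in every library dropped them for the same low counts.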
